A study of Mus musculus with 768 samples.

Results

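Muscle stem cells of old mice fell into a pair of groups of almost equal size by whether any read of *Cebpb* was found in the cell. Of the 124 old cells in the deposited table, 64 had at least 1 *Cebpb* read and 60 had 0 reads. The groups were chosen on the *Cebpb* count itself, so the *Cebpb* values below describe the choice and were not tested. All 377 cells of the table were single muscle stem cells of the tibialis anterior, a muscle of the lower leg, sorted as the brightest cells of male mice that carry the transgene Tg:Pax7-nGFP, in which regulatory sequence of *Pax7* drives a nuclear green fluorescent protein. The genetic background was C57BL/6;DBA2 F1/JRj. The 2 old mice, O1 (56 cells) and O5 (68 cells), were labelled 24 months of age, and the 4 young mice, Y4, Y5, Y7 and Y8 (253 cells), 2 months. The ages in the study's text differ somewhat from the labels, which are used here. Each cell was one library of full-length cDNA. A cell of the table had between 101755 and 626142 reads on genes, and an old cell between 101755 and 462208.

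C/EBPβ, the product of *Cebpb*, is a basic leucine zipper transcription factor that binds DNA as a dimer with itself or with other C/EBP proteins. It is induced by cytokines and other stress signals in many tissues and takes part in acute-phase and inflammatory gene expression and in the making of fat cells. In skeletal muscle it is known from satellite cells, where it is lost as cells differentiate and where it holds back myogenic differentiation. In the table *Cebpb* lies at chromosome 2 from 167688915 (GRCm38), and the GENCODE M21 gene with that start ends at 167690418 on the plus strand. *Tmem189* runs on the minus strand from 167642608 to 167689822 and so covers most of *Cebpb*. Counting by strand is not stated, so *Tmem189* reads cannot be told apart from *Cebpb* reads, and both rows were left out of every comparison.

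*Cebpb* reads were few in old cells. In O1, 28 of 56 cells had a read, which is 50.0% (exact 95% binomial interval 36.3 to 63.7), and in O5 36 of 68, which is 52.9% (40.4 to 65.2). The cells of O1 with a read held from 1 to 23 reads with a median of 2.5, and those of O5 from 1 to 182 with a median of 13. Of the 64 cells, 10 had exactly 1 read, 42 had 1 to 9 reads and 22 had at least 10, and of these 22 cells 20 came from O5. The group with reads was therefore mostly a group of low counts in O1 and of higher counts in O5.

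In the young mice a *Cebpb* read was found in 60 of 60 cells of Y4, 43 of 44 of Y5, 70 of 74 of Y7 and 65 of 75 of Y8. The median over young cells was 151 reads, against 1 read over old cells. At least 50 reads were found in 77.1% of young cells and in 4 old cells (3.23%), all of O5. The mean level in RPM (reads of the gene per 1000000 reads of the cell) was 10.9 in O1 and 43.2 in O5, and between 801.9 and 1303 in the young mice. Both old mice were sequenced in lane 2 with Y7, and the old cells held 5.33% of the *Cebpb* reads of that lane. Whether some single reads of old cells were carried over from Y7 in the lane was not tested.

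**Figure D1:**
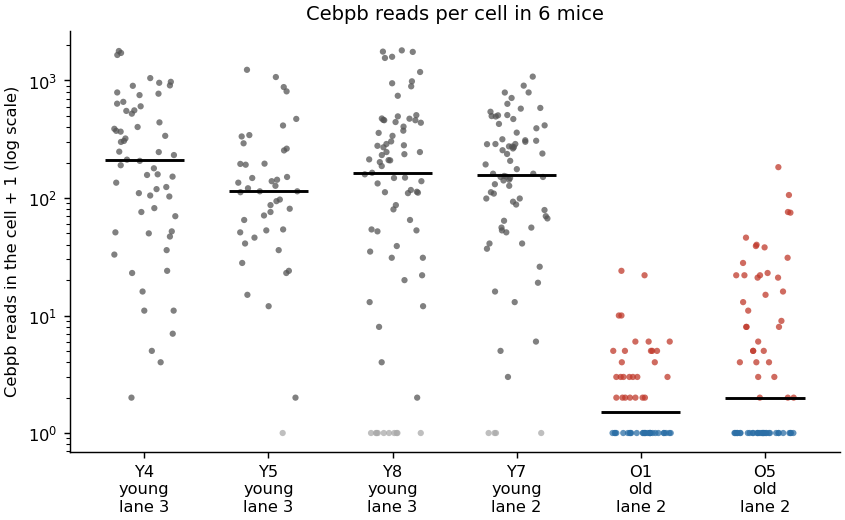
Each point is 1 cell, placed by mouse on the x axis (with its age and lane) and by its *Cebpb* reads plus 1 on a log scale on the y axis, and the bar is the median. Old cells with reads are red and those without are blue, while young cells are dark grey with reads and light grey without. Old cells reach 23 reads in O1 and 182 in O5, while the medians of the 4 young mice lie between 113 and 208.5 reads.

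Around the threshold of 1 read, the cells just inside it and just outside it overlapped in depth. The 7 cells of O1 with exactly 1 read had a median of 222165 reads and 1581 genes, and the 28 cells with 0 reads 224862 reads and 1531 genes. In O5 the 3 cells with 1 read had medians of 303740 reads and 1865 genes, against 256164 reads and 1776 genes in the 32 cells with 0. Finding any *Tmem189* read mostly went with *Cebpb*: none of these 10 cells had one, but 13 of 21 cells of O1 and 26 of 33 of O5 with 2 or more *Cebpb* reads did. Without *Cebpb* reads, *Tmem189* was read in 0 of 28 cells of O1, which allows a share of up to 10.7%, and in 2 of 32 cells of O5. The numbers of reads did not always go together. The most *Tmem189* reads in an old cell, 341 of 809, lay in a cell of O5 with 0 *Cebpb* reads. A cell of O1 had 132 *Tmem189* and 9 *Cebpb* reads, and a cell of O5 had 62 and 2.

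Depth did not sort the cells in the same way in both mice. With reads against without, the median depth was 205738 against 224862 reads in O1 and 304668 against 256164 in O5. The median number of genes with a read, *Cebpb* and *Tmem189* not counted, was 1667 (1071 to 2995) against 1531 (1015 to 2028) in O1, and 1777 (1080 to 2892) against 1776 (1087 to 2992) in O5. After every cell was thinned to 100000 reads, with the groups kept, the medians were 1575 against 1419 genes in O1 and 1657 against 1655 in O5. Thinning also moved cells across the threshold, and 21 cells of O1 and 30 of O5 still had a *Cebpb* read. With the groups set anew on these thinned counts, the medians were 1501 against 1503 genes in O1 and 1627 against 1681 in O5. The difference in O1 was thus seen only with the groups set at full depth. The ranges overlapped in all of these measures, and 2 mice allow no p under 0.5 by an exact sign-flip test over mice, so none is given.

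**Figure D2:**
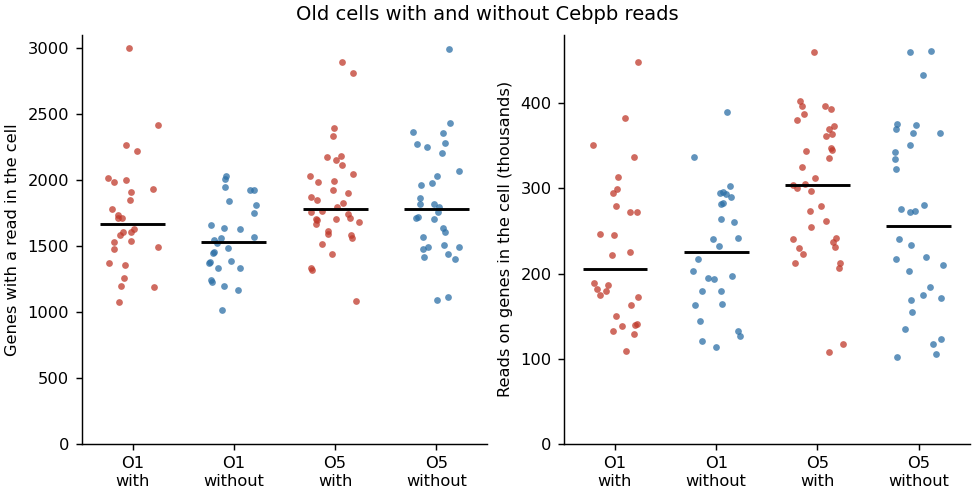
Each point is 1 old cell, grouped by mouse and by whether it had *Cebpb* reads, with the median as a bar. The left panel gives the number of genes with a read and the right panel the reads on genes divided by 1000, and in both the cells with and without *Cebpb* reads have overlapping ranges.

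Cells with and without *Cebpb* reads were about equally similar to young cells. The rank correlation of an old cell with the mean log level of the young cells had a median of 0.375 with reads and 0.368 without in O1, and of 0.388 and 0.397 in O5. They were also about as similar among themselves. Over the 500 most variable genes of each mouse, the mean Spearman correlation between cells was 0.176 within the cells with reads and 0.162 within those without in O1, and 0.145 and 0.146 in O5. Between the 2 groups it was 0.171 in O1 and 0.147 in O5. Ribosomal protein genes took a median of 4.21% of reads with and 4.01% without in O1, and 5.34% and 5.26% in O5. A list of 42 immediate early genes, which sorting and tissue digestion are known to induce, took 2.92% with and 2.19% without in O1 and 2.79% and 2.56% in O5.

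Across genes, no difference between cells with and without *Cebpb* reads held up against the spread between the mice. Reads were summed per mouse and group into 4 sums, and edgeR's quasi-likelihood test with the mouse as a block called 0 of 9914 genes (0.0%) at a Benjamini-Hochberg adjusted p of 0.05, with 180 genes at an unadjusted p under 0.05. The limma fit on mean log values also called 0, with 514 genes at an unadjusted p under 0.05. DESeq2 called 191 of the 8184 genes to which it gave an adjusted p (2.33%), 119 higher and 72 lower with *Cebpb* reads. In 185 of these 191 genes 1 cell held over 50% of the reads of one of the 4 sums, and 6 of the 191 were read in at least 20% of the old cells of each mouse. Such a cell was also found in 15 of the 20 genes with the largest shared ratios, named below. Neither count was set against all genes tested, so neither is read as particular to the DESeq2 calls. The standard error of a log2 fold change in edgeR had a median of 0.78 over genes of at least 50 CPM (counts per 1000000 of the sum) read in 20% of the cells of each mouse, so a 2-fold difference mostly lay within 2 standard errors.

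The differences of the 2 mice did not go together across genes. Over the 3705 genes that averaged 50 CPM or more in the 4 sums, the log2 ratio of cells with over cells without *Cebpb* reads in O1 had a Pearson correlation of −0.01 and a Spearman correlation of 0.01 with that in O5. This correlation is across genes of 2 separate pairs of sums and is a description. The ratio was past 2-fold in both mice and in the same direction for 204 genes with the higher level in cells with reads (5.51%) and for 201 with the lower level (5.43%), together 405 genes, while 395 genes were past 2-fold in opposite directions. With a read in at least 20% of the old cells of each mouse required, 1836 genes remained, of which 53 were higher and 48 lower in both mice and 96 differed in opposite directions. Of these 101 genes with the same direction, 69 were still past 2-fold in both mice after thinning and 65 in cells paired within their mouse on the number of genes detected. When the groups were set anew on the thinned *Cebpb* counts, 33 of the 101 were.

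**Figure D3:**
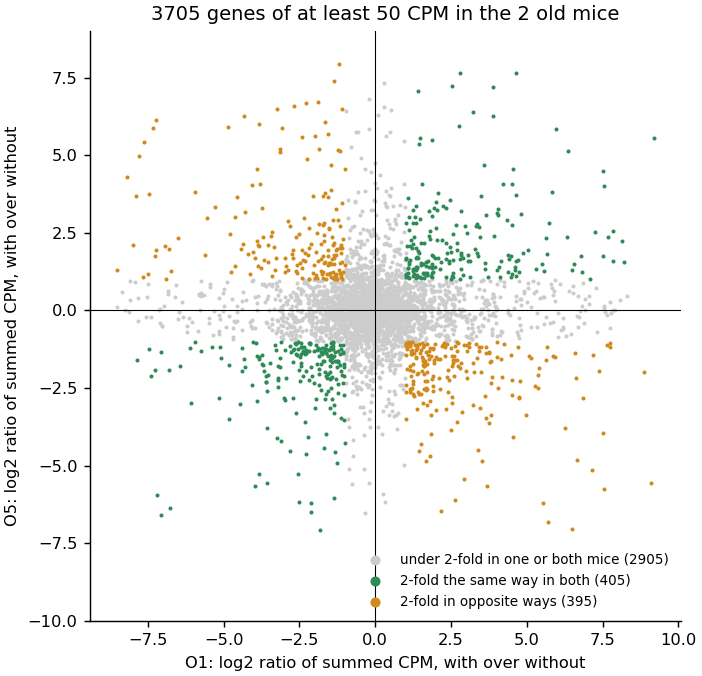
Each point is 1 of the 3705 genes that averaged 50 CPM or more, with the log2 ratio of summed CPM in old cells with over those without *Cebpb* reads in O1 on the x axis and in O5 on the y axis. The 405 genes past 2-fold in the same direction (green) are nearly matched in number by the 395 past 2-fold in opposite directions (orange).

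The genes named here had the largest ratios shared by both mice among genes of at least 50 CPM read in at least 20% of the old cells of each mouse. They were chosen on these ratios, and none passed the edgeR test. All 20 had an edgeR adjusted p of 1, with standard errors between 0.44 and 1.40 on the log2 scale. *Irgm1*, an interferon-induced GTPase of cell-autonomous immunity, summed to 1521 CPM in cells with and 380.6 in cells without reads in O1, and to 517.2 and 81.5 in O5. Its log2 fold change was 2.33 ± 0.44 (SE), but it was read in 8 cells with and 12 without in O1 and in 12 and 8 in O5. The larger sums of O1 thus came from fewer cells, whose highest reached 10990 RPM.

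*Reep5*, which shapes the endoplasmic reticulum, summed to 190.3 against 17.6 CPM in O1 and 119.5 against 16.5 in O5. *Tox4*, a subunit of a phosphatase complex of chromatin, gave 163.5 against 14.2 CPM in O1 and 163.1 against 24.5 in O5. *Dhx15*, an RNA helicase of splicing, gave 116.6 against 10.7 CPM and 166.0 against 24.1 CPM. These 3 genes were read in more cells with than without *Cebpb* reads in both mice, for example *Reep5* in 8 against 4 cells of O1 and 13 against 4 of O5. *Egr2*, an immediate early zinc finger factor, gave 513.0 against 60.9 CPM in O1 and 144.6 against 41.1 CPM in O5, and was read in 9 against 7 and 14 against 3 cells. Other higher genes were *Itih5*, *Prpf4b*, *Med13* and *Trim2*, and DESeq2 called *Irgm1* and *Itih5*.

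Among the genes with the lower level in cells with reads, *Ap1m1*, a subunit of the clathrin adaptor AP-1, summed to 19.3 against 235.6 CPM in O1 and 44.3 against 192.7 CPM in O5. *Senp6*, a SUMO protease, gave 27.6 against 147.0 and 12.4 against 57.4 CPM. *Eif3l*, a subunit of a translation initiation factor, gave 149.4 against 490.5 and 69.9 against 220.5 CPM. *Senp6* was read in 4 against 10 cells of O1 and 5 against 10 of O5, whereas *Eif3l* was read in 10 against 8 cells of O1 and 9 against 11 of O5. The remaining ones were *Tfdp2*, *Snrnp200*, *Tmem183a*, *Golim4*, *Zim1*, *Rdx* and *Sdccag3*. In 15 of the 20 genes 1 cell held over 50% of the reads of one of the sums.

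Shares of cells with a read, in which each cell counts once, were compared next. Of 5160 genes read in at least 10% of old cells, 36 (0.698%) were read in a share over 15 percentage points higher in cells with *Cebpb* reads in both mice, and 11 (0.213%) in a share over 15 points lower. Another 51 genes differed by more than 15 points in opposite directions. After thinning 23 of the 36 and 9 of the 11 were still past 15 points, and among the paired cells 12 and 4. Over all 5160 genes the median difference in share was 3.57 points in O1 and 0.17 points in O5. It was 0 in both mice after thinning, when 31 of the 5160 genes were over 15 points higher in both mice and 14 lower.

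*Pax7*, the transcription factor that defines satellite cells and whose transgene was used for sorting, was among the 36. It was read in 26 of 28 cells with and 20 of 28 without *Cebpb* reads in O1 (92.9%, exact interval 76.5 to 99.1, against 71.4%, 51.3 to 86.8), and in 36 of 36 and 26 of 32 in O5 (100%, 90.3 to 100, against 81.2%, 63.6 to 92.8). After thinning these were 26 and 20 cells in O1 and 35 and 26 in O5. In the paired cells the share differed by 25 points in O1 and by 14.3 in O5, which is under 15. The summed level of *Pax7* was 1339 against 771.1 CPM in O1 and 898.0 against 773.2 CPM in O5, and its log2 fold change of 0.51 ± 0.36 (SE) had an edgeR unadjusted p of 0.212. The median level per cell was 566 RPM with and 135 RPM without *Cebpb* reads in O1. In O5 it lay the other way, at 377.6 RPM with and 460.0 RPM without, so in O5 *Pax7* was found in more cells without a higher median. In the young mice, which had no part in the choice, *Pax7* was read in 54 of 65 cells with and 9 of 10 without *Cebpb* reads in Y8, and in 67 of 70 and 4 of 4 in Y7.

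Of the other myogenic genes, chosen after their values were seen, *Myf5* was read in 15 against 14 cells of O1 and 25 against 22 of O5. *Myod1*, the factor of myogenic commitment, was read in 14 against 10 cells of O1 and in 17 cells of each group of O5, and its sums were 849.0 against 933.5 CPM in O1 and 459.4 against 1743 CPM in O5, with a log2 fold change of −1.03 ± 0.52 (SE). *Calcr*, the calcitonin receptor of quiescent satellite cells, was read in 10 against 7 and 12 against 10 cells. *Vcam1*, an adhesion molecule used to sort them, was read in 19 against 17 and 25 against 19 cells. The differences were up to 14.3 points in O1 and 10.1 in O5, and that of *Myod1* had opposite signs in the 2 mice.

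Immediate early genes made up 4 of the 36. They were 4 of the 37 list members read in at least 10% of old cells (10.8%, against 0.698% of all such genes), on a list chosen with earlier results known, so nothing particular to the list is read from it. *Ier3*, an early gene of growth factor and stress signals, had the largest share difference of the 4 in O1, at 18 against 6 of 28 cells in O1 (64.3%, 44.1 to 81.4, against 21.4%, 8.30 to 40.95) and 17 of 36 against 8 of 32 in O5 (47.2%, 30.4 to 64.5, against 25.0%, 11.5 to 43.4). Thinning left 18 and 6 cells in O1 and 17 and 7 in O5. Its sums were 407.1 against 194.2 CPM in O1 and 282.8 against 107.8 CPM in O5, and its log2 fold change was 1.23 ± 0.59 (SE), edgeR unadjusted p = 0.0843. *Dusp5*, a phosphatase of ERK, was read in 7 against 1 cells of O1 and 17 against 9 of O5. *Fosl1*, a partner of Jun proteins, was read in 18 against 10 cells of each mouse. *Csrnp1*, a nuclear early gene, was read in 24 against 19 and 32 against 20 cells. In the paired cells *Ier3* and *Csrnp1* were still past 15 points in both mice, while *Fosl1* differed by 9.52 points in O5 and *Dusp5* by 15 points, not more, in O1. In Y8 *Ier3* was read in 17 of 65 cells with and 3 of 10 without *Cebpb* reads, *Dusp5* in 17 and 2, *Fosl1* in 23 and 3, and *Csrnp1* in 45 and 5.

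The widest difference in share in O1 was that of *Dnttip2*, a nucleolar protein, at 16 against 2 cells, with 16 against 7 in O5. *Sema6a*, a transmembrane semaphorin, was read in 21 against 14 cells and 19 against 9, and so had the largest difference shared by both mice. In the other direction, *Snrpg*, a core protein of spliceosomal particles, was read in 12 against 18 cells of O1 and 20 against 25 of O5, and *Sdpr*, a protein of caveolae, in 7 against 13 cells of each mouse. These genes were named after their values were seen. In Y8, 18 of the 36 genes with the higher share (50.0%) also had a higher share in cells with *Cebpb* reads, against 54.4% of all 5160 genes. In Y7, with 4 cells without *Cebpb* reads, 24 of the 36 did (66.7%, against 60.9% of all). Of the 11 genes with the lower share, 6 had a lower share in Y8 too (54.5%, against 43.2% of all) and 2 in Y7 (18.2%, against 37% of all).

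**Figure D4:**
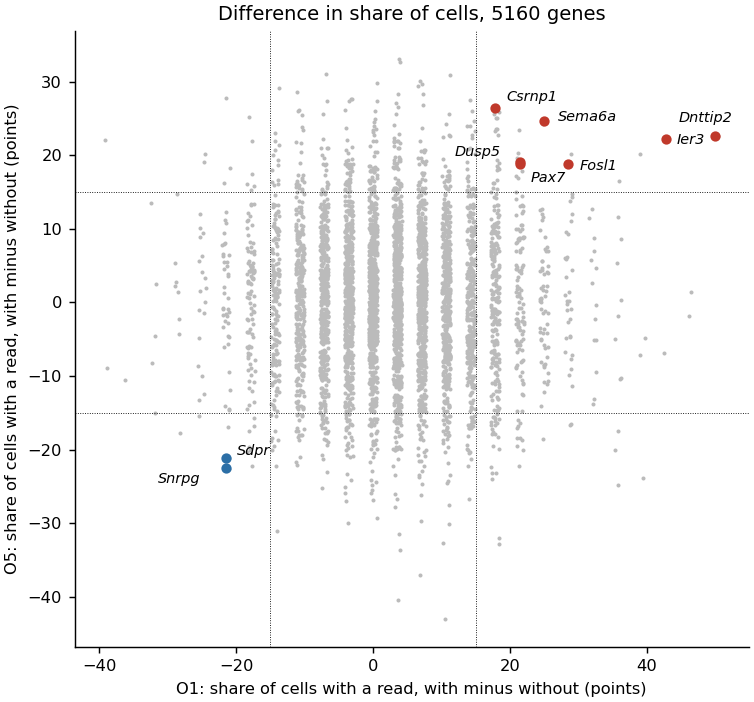
Each point is 1 of 5160 genes, with the share of cells with a read in old cells with minus old cells without *Cebpb* reads, in percentage points, for O1 on the x axis and O5 on the y axis, grey points being spread at random by up to 0.6 points. Dotted lines mark 15 points, and the named genes lie in the corners that hold the 36 (upper right) and 11 (lower left) genes.

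Lists of genes were then followed, 19 in all with 368 genes in the table, of which 301 were tested and 0 called by edgeR, with 8 (2.66%) at an unadjusted p under 0.05, against 1.82% of all 9914 genes tested. Of the 244 list genes of at least 50 CPM, 7 were past 2-fold higher with *Cebpb* reads in both mice and 7 past 2-fold lower, 2.87% each, against 5.51% and 5.43% of all genes of that level. Over all genes tested, the median log2 fold change was 0.07, and 2511 (25.3%) had a higher and 2286 (23.1%) a lower sum with *Cebpb* reads in both mice.

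On a list of the C/EBP family and its partners, 1 of 10 tested genes was past 2-fold in both mice. The median log2 fold change was −0.31, with medians of the ratio of −0.41 in O1 and 0.34 in O5. *Cebpd*, also on the list, was not in the table. That gene was *Cebpg*, a short family member that dimerises with the others, with 141.6 against 57.3 CPM in O1 and 40.6 against 17.4 CPM in O5, read in 9 against 5 cells and 12 against 2. *Cebpa*, a driver of fat cell differentiation, gave 20.9 against 49.4 CPM in O1 and 12.8 against 13.2 CPM in O5, and *Cebpe* was at 0 in all 4 sums. *Cebpz*, on the list but not counted as a C/EBP protein here, gave 264.8 against 9.71 CPM in O1 but 123.0 against 99.8 CPM in O5. A single cell held 96.1% of its reads in the cells of O1 with *Cebpb* reads. *Atf4*, a stress factor that can pair with C/EBPβ, differed little, with 1450 against 1322 CPM and 1435 against 1504 CPM. *Nfil3* went in opposite directions, with 296.0 against 577.4 CPM in O1 and 446.5 against 341.9 CPM in O5.

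Among 19 tested genes of cytokine receptors and signalling to C/EBPβ, 0 were past 2-fold higher in both mice, and the kinase gene *Rps6ka3* was past 2-fold lower, with a list median of −0.11. *Rps6ka3*, whose product RSK2 phosphorylates C/EBPβ, gave 84.9 against 274.3 CPM in O1 and 118.6 against 276.3 CPM in O5, read in 12 against 13 and 17 against 20 cells. The most abundant members were close between the groups. *Osmr*, the oncostatin M receptor, gave 2591 against 3018 CPM in O1 and 1612 against 1654 CPM in O5. *Stat3*, the transducer of IL-6 family signals, gave 2345 against 1694 CPM and 2077 against 1910 CPM. For *Jak1* and *Socs3* the ratios had opposite signs in the 2 mice.

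The 22 tested inflammatory and acute-phase genes had a median log2 fold change of 0.41, with medians of 1.18 in O1 and −0.15 in O5, and 2 were past 2-fold higher in both mice. *Irf1*, an interferon response factor, gave 178.9 against 16.4 CPM in O1 and 245.8 against 67.96 CPM in O5, read in 7 against 5 and 8 against 4 cells. *Cxcl12*, a chemokine, gave 88.7 against 11.1 CPM and 121.3 against 54.8 CPM. The chemokine gene *Cxcl1* gave 2686 against 764.9 CPM in O1 and 1430 against 1382 CPM in O5. *Nfkbia*, which encodes the NF-κB inhibitor, gave 1954 against 1021 CPM in O1 but 798.9 against 943.2 CPM in O5.

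The 42 tested immediate early genes had a median of −0.01, and *Egr2* and *Ier3* were past 2-fold higher in both mice. Of the 42, 13 had a higher (31%) and 7 a lower sum (16.7%) in both mice and 22 did not have the same sign in both. *Fosb* gave 3132 against 2399 CPM in O1 and 3447 against 2180 CPM in O5, a log2 fold change of 0.53 ± 0.25 (SE). *Egr1*, the most abundant of the list, gave 7265 against 6181 CPM and 4057 against 3889 CPM. *Fos* and *Zfp36l1* were lower with *Cebpb* reads in O1 and higher in O5.

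Of 19 heat shock and chaperone genes, 1 had a higher (5.26%, against 25.3% of all genes tested) and 8 a lower sum (42.1%, against 23.1%) in cells with *Cebpb* reads in both mice. *Hspb1*, a small heat shock protein of muscle, gave 279.4 against 1358 CPM in O1 and 752.6 against 1933 CPM in O5. Its log2 fold change was −1.82 ± 0.39 (SE), with an edgeR unadjusted p of 0.00372 and an adjusted p of 1, while DESeq2 called it (adjusted p = 0.00843). It was read in 16 against 18 cells of O1 and 16 against 20 of O5, and 1 cell of O5 without *Cebpb* reads reached 21160 RPM. *Hspa9*, the mitochondrial Hsp70, gave 233.9 against 492.0 CPM and 141.3 against 309.2 CPM. *Hsp90aa1*, *Bag3*, *Hspa8* and *Hsp90ab1*, read in most cells, had log2 fold changes between −0.43 and −0.15. The log2 ratios of *Hsp90aa1* and *Bag3* were negative in both mice. Those of *Hspa8* (−0.36 in O1 and 0.05 in O5) and *Hsp90ab1* (−0.67 and 0.20) had opposite signs. The list median was −0.35, from −0.67 in O1 and 0.03 in O5.

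**Figure D5:**
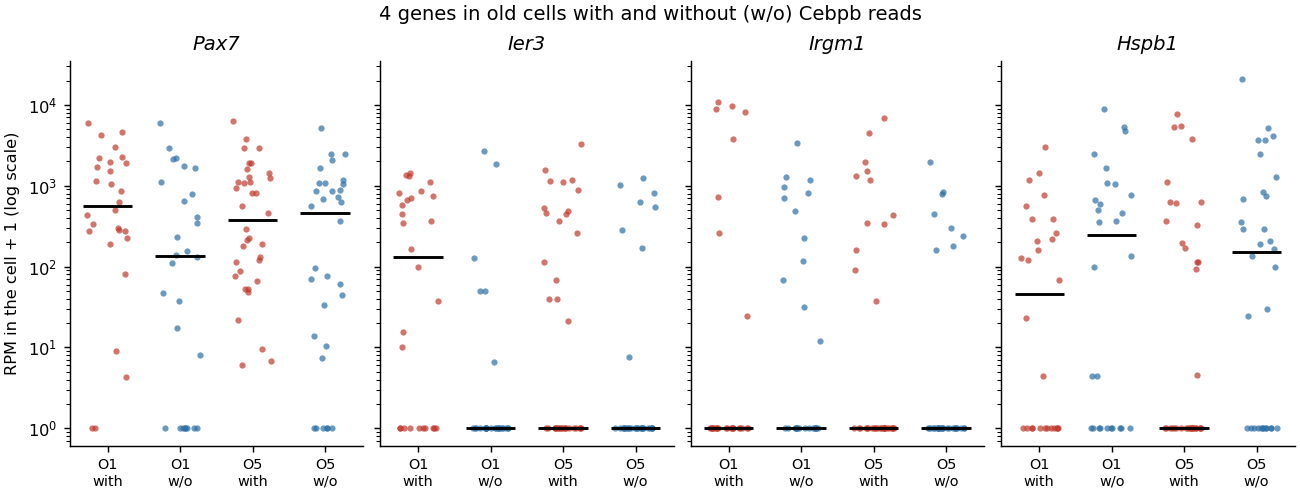
Each point is 1 old cell, grouped by mouse and by whether it had *Cebpb* reads (w/o, without), with its level in RPM plus 1 on a log scale and the median as a bar. *Pax7* and *Ier3* were read in more cells with *Cebpb* reads in both mice, while the sums of *Irgm1* and *Hspb1* rested on a few cells of high level and their ranges overlap.

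The 23 tested genes of myogenic identity and surface had a median of −0.17, from −0.33 in O1 and 0.05 in O5, so the 2 mice differed in sign. *Ncam1*, an adhesion molecule, was past 2-fold higher in both mice, with 457.7 against 78.7 CPM in O1 and 466.3 against 217.4 CPM in O5. *Ncam1* was read in 15 against 11 and 22 against 12 cells. *Des*, the muscle intermediate filament desmin, gave 940.7 against 1958 CPM in O1 and 1416 against 1992 CPM in O5, a log2 fold change of −0.77 ± 0.31 (SE). *Sdc4*, a syndecan of the satellite cell surface, gave 7000 against 10558 CPM and 6121 against 7578 CPM. *Chodl* and *Fgfr1* had log2 fold changes of −0.23 and −0.22.

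Of 21 quiescence and Notch genes, 11 had a higher (52.4%, against 25.3% of all genes tested) and 3 a lower sum (14.3%, against 23.1%) in both mice, and the median was 0.51, with 0.56 in O1 and 0.32 in O5. The 1 gene past 2-fold was *Foxo1*, a factor of quiescence, with 65.8 against 21.6 CPM and 124.6 against 53.95 CPM, read in 4 against 2 cells of each mouse. In O1 a single cell held 97.3% of the *Foxo1* reads with and 60.5% without *Cebpb* reads, and in O5 44.5% and 56.4%. *Notch3* gave 717.7 against 443.7 CPM in O1 and 785.9 against 664.0 CPM in O5, whereas *Notch1* gave 1315 against 1863 CPM in O1 and 1666 against 766.5 CPM in O5. *Btg1* and *Cdkn1a* had log2 fold changes of −0.19 and −0.01. In the cell cycle list *Ccne1*, *Ccnb1*, *Cdk1*, *Mki67* and *Top2a* were at 0 in all 4 sums. Its 10 tested genes had a median log2 fold change of 0.27, but the medians of the ratio were −0.16 in O1 and 0.08 in O5. *Mcm7*, a helicase subunit of DNA replication, was past 2-fold lower, with 25.9 against 215.3 CPM and 8.60 against 66.8 CPM, read in 5 against 3 and 3 against 4 cells. DESeq2 called *Cdk2*, a cell cycle kinase named after its values were seen (adjusted p = 0.0122), which was read in 1 against 5 cells of O1 and 0 against 2 of O5.

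The remaining lists gave medians near that of all genes or opposite signs in the 2 mice. The 14 tested genes of the integrated stress response had a median of 0.13, from 0.53 in O1 and −0.24 in O5, and *Cebpg* was the member past 2-fold. The 31 genes of extracellular matrix and adhesion had a median of −0.01, and *Lamb2*, a laminin chain, was past 2-fold lower, with 128.1 against 351.5 CPM and 103.5 against 233.7 CPM. *Thbs1* stood apart, with 238.6 against 1.34 CPM in O1 and 4605 against 6687 CPM in O5. The 9 adipogenic genes had medians of −1.07 in O1 and 0.31 in O5, and *Pparg*, *Fabp4*, *Adipoq*, *Plin1* and *Cd36* were at 0 in all sums. The 4 nuclear long noncoding RNAs had a median of −0.17, and *Malat1* gave 10940 against 12324 CPM and 15878 against 13907 CPM. The 79 ribosomal protein genes had a median of 0.01, with 0 past 2-fold in both mice.

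Most markers of other cell types were at or near 0 in both groups, with *Gsn*, *Dpt*, *Acta2* and *Tagln* among the exceptions. Of 44 marker genes of endothelial, fibroadipogenic, immune, myofibre, smooth muscle and tenocyte or glial cells, 28 were at 0 in all 4 sums, and 9 could be tested. The defining genes *Pecam1*, *Cdh5*, *Pdgfra*, *Ptprc*, *Acta1*, *Myh11* and *Sox10* were all at 0. The summed level of the list was at most 53.5 CPM for endothelial, 19.1 for immune, 17.4 for myofibre, 26.5 for tenocyte and glial, and 150.0 for smooth muscle and pericyte markers in any sum. In the fibroadipogenic list it ran from 999.3 to 1519 CPM, nearly all of it *Gsn* and *Dpt*, with *Pdgfra*, *Ly6a*, *Dcn*, *Lum* and *Pi16* at 0. *Acta2*, smooth muscle actin, was past 2-fold lower with *Cebpb* reads, with 15.6 against 140.7 CPM in O1 and 3.78 against 87.7 CPM in O5. It was read in 2 against 5 and 2 against 6 cells. A single cell held 81.4% and 76.2% of its reads with and without *Cebpb* reads in O1, and 95.3% and 33.1% in O5. *Tagln*, of the same list, gave 0.80 against 7.20 CPM in O1 but 77.4 against 61.1 CPM in O5. It was read in 2 against 2 cells of O1 and 8 against 6 of O5.

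Whether the difference depended on age could hardly be asked, since Y8 was the only young mouse with 5 or more cells in both groups, so age and that mouse cannot be told apart. A fit of O1, O5 and Y8, whose spread rested on the old mice alone, called 3 of 13127 genes (0.0229%) in the difference between Y8 and the old mice, *Hspa1a*, *Osgin1* and *Gm14636*. In Y8 *Hspa1a*, an inducible Hsp70, was read in 27 of 65 cells with and 1 of 10 without *Cebpb* reads, and *Osgin1*, an oxidative stress response gene, in 21 and 1. *Gm14636*, a gene model, was read in 18 and 0 of these cells. In the old mice *Hspa1a* gave 8581 reads with and 13355 without *Cebpb* reads in O1 and 14904 and 11486 in O5. In both old mice these genes were read on both sides, so the calls turned on the 10 cells of Y8 without *Cebpb* reads, which held 0 or 1 read of each gene in all.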

How the data were processed

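RNA and DNA of each cell were sequenced separately (scM&T-seq), and the RNA was used here. The authors trimmed and aligned the reads (HiSat2, GRCm38) and deposited raw, not normalized, counts per gene and cell made in SeqMonk. Neither the annotation nor whether counting used strand is given in the sources used here. Cells under 1000 genes or 100000 reads had been removed. No doublet caller was run, since cells were sorted singly. Reads have no molecular identifiers, so intervals (95%, Clopper-Pearson) and limits (3 counts at 0) cover counting error only.

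The old cells, the groups and the gene lists were chosen with earlier results of these data known. Mice were the replicates, and both groups of a mouse come from the same animal, so the mouse was a block. Counts summed per mouse and group, without *Cebpb* and *Tmem189*, were tested with edgeR 4.0.16 (TMM, filterByExpr, quasi-likelihood, Benjamini-Hochberg over all genes tested, threshold 0.05) in R 4.3.3. DESeq2 1.42.0 and limma 3.58.1 (mean log2 of RPM plus 1) were alternatives. CPM were scaled by TMM, and ratios within a mouse used a prior of 1 CPM and have no test. A gene was past 2-fold with a mean of at least 50 CPM in the 4 sums.

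Genes were named by rule. The rule took up to 10 genes a direction past the edgeR threshold or, where fewer passed, those past 2-fold in both mice and read in 20% of the old cells of each mouse, ordered by the smaller ratio. It also took the 4 most abundant genes of each list and list members past 2-fold in both mice. Others are said to have been chosen after their values were seen. Similarity to young cells is Spearman's rho with the mean log2(RPM + 1) of all young cells, over genes read in 5 or more cells. Variable genes had a mean of at least 10 RPM and the largest distance to a rolling median over 100 genes. Python 3.11.15 (scipy 1.17.1, numpy 2.4.6, pandas 2.3.3) served for the rest. Other tissues, the methylation data and the cells not in the table were not analysed here. Some genes that the naming rule took are not reported here.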

Additional observations from a re-analysis of the deposited data

Results flagged for a closer look

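In 3 genes the difference between cells with and without *Cebpb* reads differed between the 2 old mice and Y8, the only young mouse in this fit, in edgeR's quasi-likelihood test of the interaction. Age and that mouse cannot be told apart. The fitted interaction was −9.43 on the log2 scale for *Hspa1a* (adjusted p = 0.00618), −9.93 for *Osgin1* (adjusted p = 0.0268) and −15.14 for *Gm14636* (adjusted p = 0.0328), old minus young. With Y7 added, which had 4 cells without *Cebpb* reads, the edgeR adjusted p was 9.37e-06 for *Hspa1a*, 0.000244 for *Osgin1* and 0.072 for *Gm14636*, which was then not called. These values depend on the prior count, since the 10 cells of Y8 without *Cebpb* reads held 1, 1 and 0 reads of the 3 genes among 3160703 reads. In Y8 the level in the 65 cells with *Cebpb* reads was 494 times that in the 10 without for *Hspa1a* (exact 95% counting interval 88.6 to 19513) and 1082 times for *Osgin1* (194.2 to 42745). For *Gm14636* it was at least 151-fold higher, against a floor of 3 reads in the group. These intervals cover counting error only. *Hspa1a* was read in 27 of the 65 cells, *Osgin1* in 21 and *Gm14636* in 18.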

How the results depend on the processing

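The count of 0 genes called by edgeR was unchanged with DESeq2 size factors, without the filter, with no replicate block (432 genes at an unadjusted p under 0.05), after thinning with the groups kept or set anew, in cells paired on genes detected, in cells of at least 200000 reads, with at least 10 *Cebpb* reads against 0, with Y8 in the fit, and with limma. It was 191 with DESeq2. The interaction called 3 genes in mice with at least 5 cells in each group, 3 with DESeq2 size factors and 8 with at least 2, where *Gm14636* was no longer called (edgeR adjusted p = 0.072). The mean over both mice of the difference in cell-to-cell correlation was 0.0065 and turned to −0.0141 in paired cells, and the cause was not tested. Without O1 or O5 it ranged from −0.00057 to 0.0137, the difference in genes detected from 1 to 136.0 and that in similarity to the young mean from −0.0089 to 0.0073. The 20 genes with the largest shared ratios kept their direction except in 2 settings. They were chosen for ratios of the same direction in both mice, so leaving out O1 or O5 could not reverse them. DESeq2, its size factors, no filter, no block and the fit with Y8 all reused the same sums of the old cells. A kept direction in these settings is therefore no separate check. With at least 10 *Cebpb* reads, which left 2 cells of O1 on that side, the log2 fold change was −0.74 for *Dhx15*, −1.08 for *Tox4*, −2.79 for *Irgm1*, −1.78 for *Itih5*, −2.01 for *Egr2*, −1.71 for *Prpf4b*, −1.22 for *Med13* and −2.22 for *Trim2*, while the median of all genes was −2.12. With the groups set anew after thinning it was −1.69 for *Prpf4b*. Depth limits the split itself: 10 of the 64 cells had 1 *Cebpb* read, and thinning left 51 cells with a read. A group with 2 mice limits every count of calls, and a p that missed the threshold does not show that the groups were alike.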
